A study of Mus musculus with 24 samples.

Results

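Tumour necrosis factor (TNF) and loss of the splicing factor RBM25 were applied singly and together to mouse inner ear organoids, and the measure described here is their interaction. It is the TNF effect with RBM25 knocked down minus the TNF effect without it, on the log2 scale, so that a positive value means a TNF effect that lies higher with the knockdown. Of the 25190 genes in the organoid count table, 15888 had enough counts to be tested. Among these, 1962 (12.3%) had an interaction that passed the test (edgeR's quasi-likelihood F-test, Benjamini-Hochberg adjusted p under 0.05). It was positive in 1198 (7.54% of genes tested) and negative in 764 (4.81%). Every gene with a call was then sorted by the shape of its 4 group means.

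The series holds 24 bulk RNA-seq libraries, and the 12 of the organoid experiment are used. Cochlear epithelium of wild-type mice at postnatal day 1 to 2 was dissociated, and single cells were grown into organoids in Matrigel with EGF, bFGF, IGF and CHIR99021, an inhibitor of the kinase GSK3. All 4 groups then shared a differentiation phase with CHIR99021 and LY411575, a gamma-secretase inhibitor that blocks Notch cleavage, followed by low EGF and bFGF. The mouse strain is named for the inner ear tissue of the series and not for the organoids. The control organoids carry the label of no treatment, the TNF organoids received TNF-α, the knockdown organoids received lentivirus against RBM25, and the last group received both. Each group has 3 libraries. Sample titles call the lentiviral groups a knockout and the treatment field calls them a knockdown. The TNF dose and duration, the virus given to the control groups, if any, and the number of mice or cultures behind each library are not stated in the labels. Because nothing states that the 3 libraries of a group came from separate cultures, the p-values measure only how far these samples vary, and that variation may be technical.

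TNF binds TNF receptors on many cell types, and the receptor complex frees NF-κB from its inhibitors (IκB proteins), which raises transcription of cytokines, adhesion molecules and the inhibitors themselves. Cells that sense interferon, in contrast, signal through a complex that includes STAT2 and IRF9, which binds the interferon response element in promoters of antiviral genes. TNF is known to raise such genes as well, at a later stage and in part through interferon-β. RBM25 is an RNA-binding protein that associates with the U1 splicing particle and affects splice site choice.

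The libraries held 33802411 to 37048422 counts, of which 2.68% to 3.48% were mitochondrial. Values are given as CPM, counts scaled to a common library size with TMM factors, and "±" after a log2 interaction is its standard error. Supporting cell and otic epithelium markers, 20 genes, summed to 17280 to 17760 CPM in control libraries, 9931 to 10750 with TNF, 12810 to 13280 with the knockdown and 8093 to 8353 with both. Otoa and Otog made up the largest part in control. In the same order their group means were 5422, 2261, 3279 and 1537 CPM and 5223, 1572, 2649 and 1377 CPM. Tecta went the other way with the knockdown alone, from 991 to 3050 CPM. With the knockdown alone 6 of the 20 were called higher and 9 lower (24.4% and 28.2% of all genes). The 24 hair cell markers all had counts, so transcripts of the labelled inner ear identity were present. Ocm and Tmc2 had only 5 and 33 counts over the 12 libraries, and 22 markers were tested. All 24 together summed to 1150 to 1185 CPM in control, 772 to 836 with TNF, 1199 to 1627 with the knockdown and 838 to 1011 with both. Ush1c made up the largest part, with group means of 627, 317, 380 and 223 CPM, and it was lower with the knockdown. By contrast, 18 of the 22 tested markers were called higher with the knockdown alone (24.4% of all genes) and 3 lower (28.2%). Markers of mesenchyme, 12 genes, summed to 225 to 228 CPM in control, 375 to 507 with TNF, 355 to 471 with the knockdown and 798 to 849 with both. Vim, the intermediate filament vimentin, which is not limited to mesenchyme, carried most of that difference, with group means of 83.5, 242, 241 and 622 CPM in the same order. With the knockdown alone 5 of the 11 tested mesenchyme markers were called higher and 3 lower (24.4% and 28.2% of all genes). Pdgfra and Tbx18 were higher than in control, at 20.4 against 8.68 and 40.5 against 17.2 CPM. Coch and Prrx1 were lower, at 5.40 against 34.2 and 25.4 against 41.6 CPM. In bulk RNA, fewer cells of a type and less RNA per cell cannot be told apart.

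Rbm25 itself stood at 142, 148 and 144 CPM in the control libraries, 150, 163 and 173 with TNF, 96.9, 94.2 and 92.7 with the knockdown and 103, 122 and 108 with both. The knockdown groups lay below both other groups in every library, by -0.61 on the log2 scale without TNF, so that much of the transcript remained. Its interaction was 0.07 ± 0.09 (adjusted p = 0.683), so a difference in the knockdown between the TNF states was not detected. Tnf had no count in any of the 6 libraries without TNF. It reached 1.30, 1.12 and 1.25 CPM with TNF, at least 42.2-fold over 3 counts in the control group. With TNF and the knockdown it reached 1.605, 2.22 and 1.75 CPM, at least 67.0-fold over the same floor.

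The interaction took 4 main shapes. In 688 genes (35.1% of those called) a TNF-driven fall was weaker with the knockdown. In 501 genes (25.5%) a TNF-driven rise was stronger, in 441 (22.5%) a rise was weaker, and in 314 (16.0%) a fall was stronger. The TNF effect used for the shape is the larger of the 2, and 18 genes had no TNF effect called in either state. Most interactions were small: 760 of the positive and 507 of the negative ones were below 0.5 on the log2 scale, and 163 positive and 101 negative ones reached a factor of 2. In 181 genes TNF moved the transcript in opposite directions, each direction called, without and with the knockdown.

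**Figure D1:**
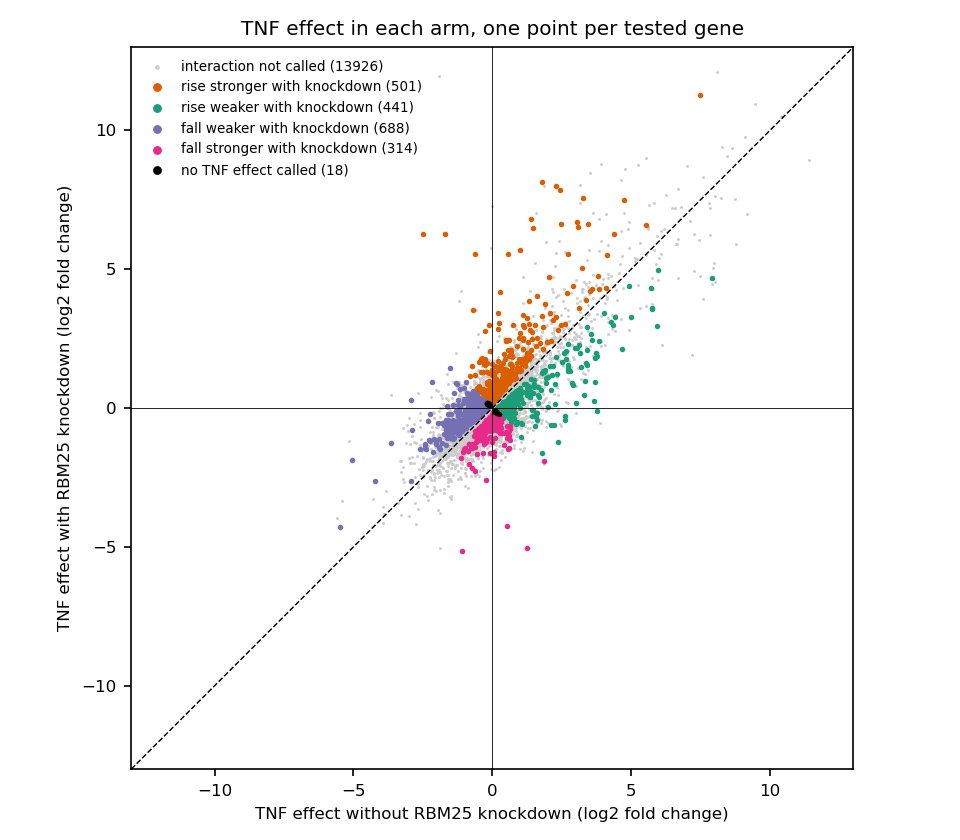
Log2 change with TNF without the knockdown (x axis) against log2 change with TNF with the knockdown (y axis), 1 point per gene tested, coloured by shape where the interaction passed. The dashed line marks equal effects. Points above the line have a positive interaction and points below it a negative one, and the shapes of stronger rise, weaker rise, weaker fall and stronger fall hold 501, 441, 688 and 314 genes.

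The shapes differed in which group was extreme. Among stronger rises the knockdown alone was the lowest group in 390 of 501 genes, and knockdown plus TNF the highest in 264. Among weaker falls the control was the highest group in 503 of 688, and TNF alone the lowest in 391. Among weaker rises TNF alone was the highest in 302 of 441 and the control the lowest in 280. Among stronger falls the knockdown alone was the highest in 202 of 314 and both together the lowest in 192. Since the shape is defined on the same 4 means, these counts describe the groups and are no test.

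The counts depend on single libraries. Positive calls numbered 789 without control replicate 1, 637 without knockdown plus TNF replicate 1 and 677 without its replicate 3. Negative calls numbered 432 without control replicate 1, 477 without control replicate 2, 486 without knockdown replicate 2 and 1158 without knockdown plus TNF replicate 2. With no filter on low counts there were 938 positive and 1026 negative calls, so the excess of positive calls is not stable. On a linear CPM scale, where changes are subtracted instead of divided, 1874 of the 1962 genes (95.5%) had the same sign and 88 the opposite sign.

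Interferon-stimulated genes gave the largest number of positive interactions of the 34 lists examined. Of 87 tested members of a 99-gene list, 42 were positive (48.3%, against 7.54% of all genes) and 4 negative (4.60%, against 4.81%). The median interaction was 0.81, against 0.01 over all genes. All 42 had the shape of a stronger rise. Every knockdown plus TNF library lay above all 9 other libraries in 61 of the 87 tested members (70.1%), against 7.83% of all genes tested. It did so in 37 of the 42, but these were chosen for a positive interaction in the same libraries. Leaving out any library gave 37 to 43 positive calls. The negative calls numbered 1 without control replicate 1, control replicate 2 or knockdown plus TNF replicate 1, and 2 without control replicate 3, TNF replicate 2, knockdown replicate 3 or knockdown plus TNF replicate 3.

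The list shows how the 4 groups line up. TNF without the knockdown raised 59 of the 87 genes (23.3% of all genes rose) and lowered 5 (24.2% of all genes fell), with a median log2 change of 0.99. TNF with the knockdown raised 77 (22.8% of all genes) and lowered 5 (22%), with a median of 2.06. The knockdown without TNF raised 19 (24.4% of all genes) and lowered 35 (28.2%), with a median of -0.22. Knockdown plus TNF was the highest group for 64 of the 87 and the knockdown alone the lowest for 48.

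**Figure D2:**
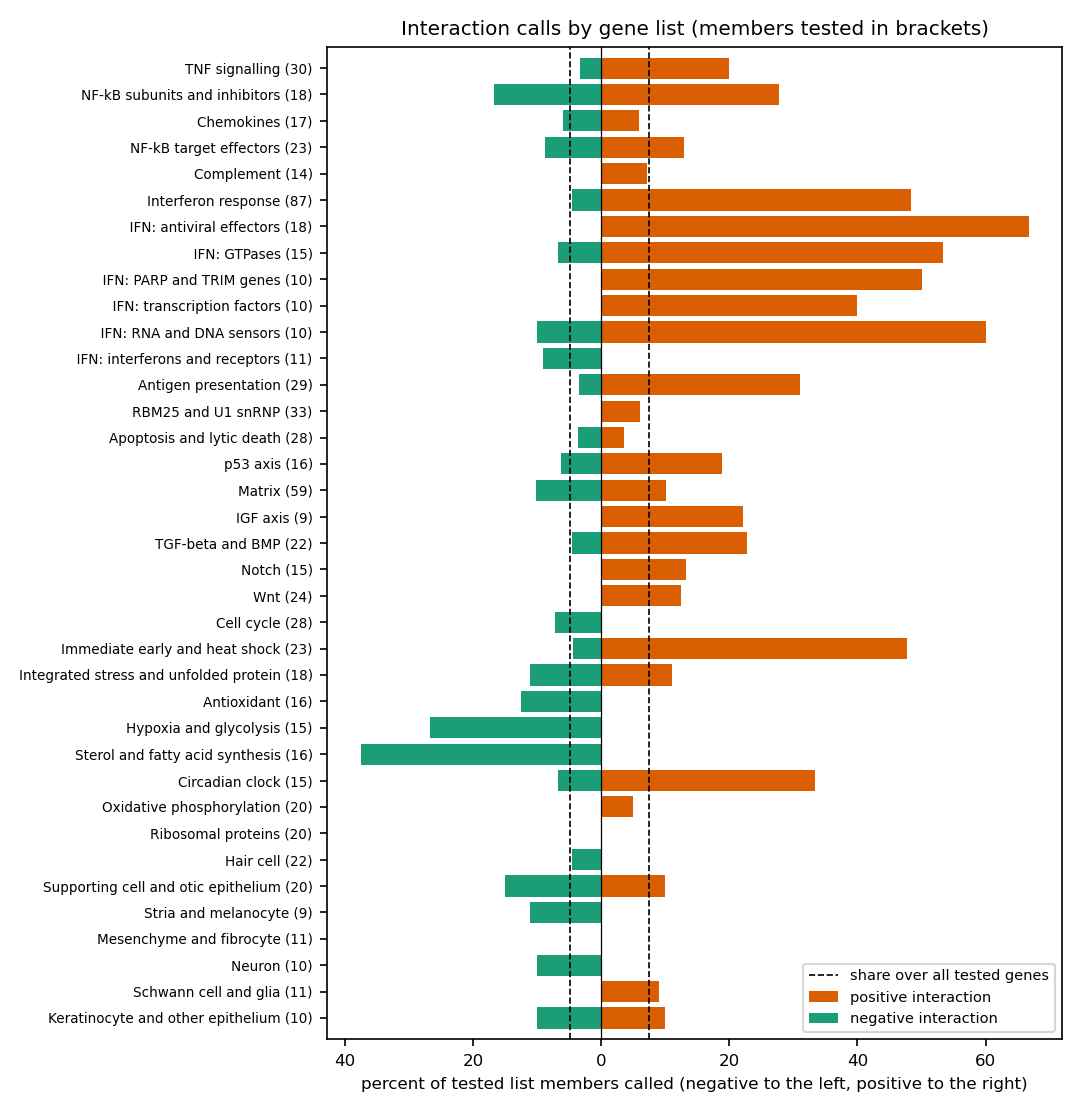
Percent of tested genes with a positive (to the right) and a negative (to the left) interaction in each gene list, with dashed lines at the shares over all genes, 7.54% and 4.81%. The immediate early and interferon lists reach furthest to the positive side, and sterol synthesis furthest to the negative side.

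Promoter sequence is shown here for members whose interaction passed and whose window held the core of the interferon response element, since the letters can be seen beside the values that follow. The motif was GAAA, 2 bases of any kind and GAAA again, searched on both strands in RefSeq windows from 250 bases before to 50 bases after each gene start (GRCm38.p6). Capitals mark the matches, and each stretch is read 5′ to 3′ on the strand of the gene, so that a match on the other strand reads TTTC, 2 bases and TTTC. Where matches overlap, the capitals run on.
Ifit1, chr19:34640770-34640828, plus strand: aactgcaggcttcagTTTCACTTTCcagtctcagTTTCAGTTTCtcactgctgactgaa
Rsad2, chr12:26456548-26456587, minus strand: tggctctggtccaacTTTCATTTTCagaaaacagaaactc
Bst2, chr8:71537572-71537617, minus strand: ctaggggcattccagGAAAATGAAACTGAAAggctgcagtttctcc
Irgm1, chr11:48871421-48871465, minus strand: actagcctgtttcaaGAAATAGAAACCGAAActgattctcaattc
Igtp, chr11:58199507-58199546, plus strand: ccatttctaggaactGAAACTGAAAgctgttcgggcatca
Stat2, chr10:128270261-128270300, plus strand: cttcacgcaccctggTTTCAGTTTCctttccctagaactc

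The motif occurred in at least 1 window of 20 of the 33 positive interferon genes with a window (60.6%) and of 11 of 32 listed genes without a call (34.4%). It occurred in 3.99% of all 27025 genes with a window and in 3.55% of the 12395 tested genes that could be matched. Among genes of stronger rise it occurred in 44 of 402 (10.9%), which include the interferon genes. Weaker rises had it in 4.26%, weaker falls in 2.99% and stronger falls in 3.03%. A match describes these letters only, and no binding was measured.

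Antiviral effectors had 12 of 18 genes positive, none negative and a median interaction of 1.64. Ifit3 (chr19:34583119-34588982) encodes a protein that binds viral RNA together with IFIT1. It stood at 0.0860, 0.491 and 0.177 CPM in control, 1.43, 1.12 and 1.17 with TNF, 0.0780, 0.111 and 0.118 with the knockdown and 27.7, 26.3 and 25.6 with both. The last group was high in all 3 libraries and overlapped no other, and TNF alone lay above both groups without TNF. TNF changed Ifit3 by 4.88-fold without and 252-fold with the knockdown, an interaction of 5.69 ± 0.58 (adjusted p = 6.1e-06). Ifit3b is a near copy, and reads may be split between them.

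Ifit1 (chr19:34640889-34650009), which recognises RNA lacking host cap marks, followed the same order. Its values were 0.631, 0.664 and 0.5003 CPM in control, 5.08, 2.26 and 2.64 with TNF, 0.156, 0.446 and 0.265 with the knockdown and 28.9, 28.9 and 27.2 with both. The change with TNF was 5.53-fold without and 97.6-fold with the knockdown (interaction 4.14 ± 0.54, adjusted p = 0.000386). Rsad2 (chr12:26442743-26456452), the antiviral enzyme viperin, was low in 9 libraries, at 0.0578 to 0.115 CPM in control, 0.140 to 0.221 with TNF and 0 to 0.118 with the knockdown. It stood at 4.31, 4.60 and 3.07 CPM with both, well apart from the rest (interaction 4.70 ± 0.89, adjusted p = 0.00191). Bst2 (chr8:71534255-71537472), which encodes tetherin and holds budding virus at the membrane, was measured at 15.6, 15.9 and 17.7 CPM in control, 71.7, 57.7 and 52.9 with TNF, 14, 14.1 and 17.5 with the knockdown and 203.6, 199.5 and 211 with both. Here control and knockdown overlapped, TNF alone raised the transcript 3.70-fold, and TNF with the knockdown raised it 13.5-fold (1.87 ± 0.16, adjusted p = 1.71e-05).

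The 2-5A synthetases make a second messenger of antiviral defence, and 4 of 7 genes in this role were positive and 1 negative. Oasl2, a family member without a call for TNF alone, had another order of groups. Its values were 110.3, 106 and 108 CPM in control, 154, 116 and 112 with TNF, 15.3, 13.7 and 11.0 with the knockdown and 111, 106 and 114 with both. The knockdown alone was far below all others, and with TNF the level lay within the range of the control libraries to slightly above it. The fold with TNF was 1.18 without and 8.27 with the knockdown (2.81 ± 0.18, adjusted p = 7.03e-06). Oas1g, which makes 2-5A, rested on few reads outside the last group: 0.0294 to 0.116 CPM in control, 0 to 0.0556 with TNF, 0 to 0.0590 with the knockdown and 2.41, 2.97 and 1.78 with both (adjusted p = 0.000796). With the knockdown its count went from 3 to 266, a ratio of 86.1 with an exact 95% counting interval of 29.1 to 420. Oas1g and Oas1a are near-identical, so reads may be split between them.

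Usp18 (chr6:121245906-121270917), which removes ISG15 from proteins and damps the interferon receptor, belongs to the ISG15 system, in which 3 of 6 genes were positive. It stood at 0.0860, 0.0289 and 0.0294 CPM in control, 0.248, 0.224 and 0.0556 with TNF, 0, 0.0279 and 0.0295 with the knockdown and 5.59, 6.33 and 6.52 with both. The last group alone was clearly above 1 CPM, and the ratio with the knockdown was 333 (exact 95% counting interval 91.7 to 2750) from 2 counts without TNF. The interaction was 6.34 ± 1.21 (adjusted p = 0.00177). Isg15, the ubiquitin-like modifier itself, was at 0.115, 0 and 0 CPM in control, 1.49, 0.196 and 0.195 with TNF, 0, 0.0557 and 0.0590 with the knockdown and 19.9, 19.2 and 13.8 with both. Its interaction of 4.86 ± 3.05 did not pass (adjusted p = 0.362), and the groups without TNF held 4 counts each.

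Among the transcription factors of the pathway 4 of 10 were positive, with a median of 0.55. Stat2 (chr10:128270498-128292853), a member of the complex that binds the interferon response element, stood at 32.7, 31.1 and 32.5 CPM in control, 27.6, 26.1 and 30.0 with TNF, 21.0, 23.2 and 18.8 with the knockdown and 52.7, 46.5 and 54.8 with both. The 4 groups did not overlap. TNF took it to 0.870 of its level without the knockdown and raised it 2.44-fold with it (1.49 ± 0.11, adjusted p = 1.42e-07).

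Irf9, the DNA-binding member of that complex, did not move with TNF alone, at 54.3, 54.8 and 54.8 CPM in control and 62.4, 52.4 and 52.0 with TNF. It went from 29.9, 34.5 and 35.8 CPM with the knockdown to 80.6, 68.4 and 81.2 with both (1.18 ± 0.12, adjusted p = 1.24e-05). Its exons overlap those of Rnf31, and reads could be shared. Irf7, a factor that amplifies interferon transcription, stood at 0.516, 0.664 and 0.736 CPM in control, 3.09, 1.01 and 0.917 with TNF, 0.312, 0.446 and 0.206 with the knockdown and 36.0, 43.7 and 29.3 with both (5.41 ± 0.81, adjusted p = 0.00275). Only the last group was high, and Irf7 exons overlap Phrf1 on the other strand in libraries that do not keep strand. Irf1, which TNF induces through NF-κB, rose in both states to 47.1 to 49.8 and 55.1 to 55.8 CPM, and its interaction was -0.47 ± 0.16 (adjusted p = 0.0721).

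**Figure D3:**
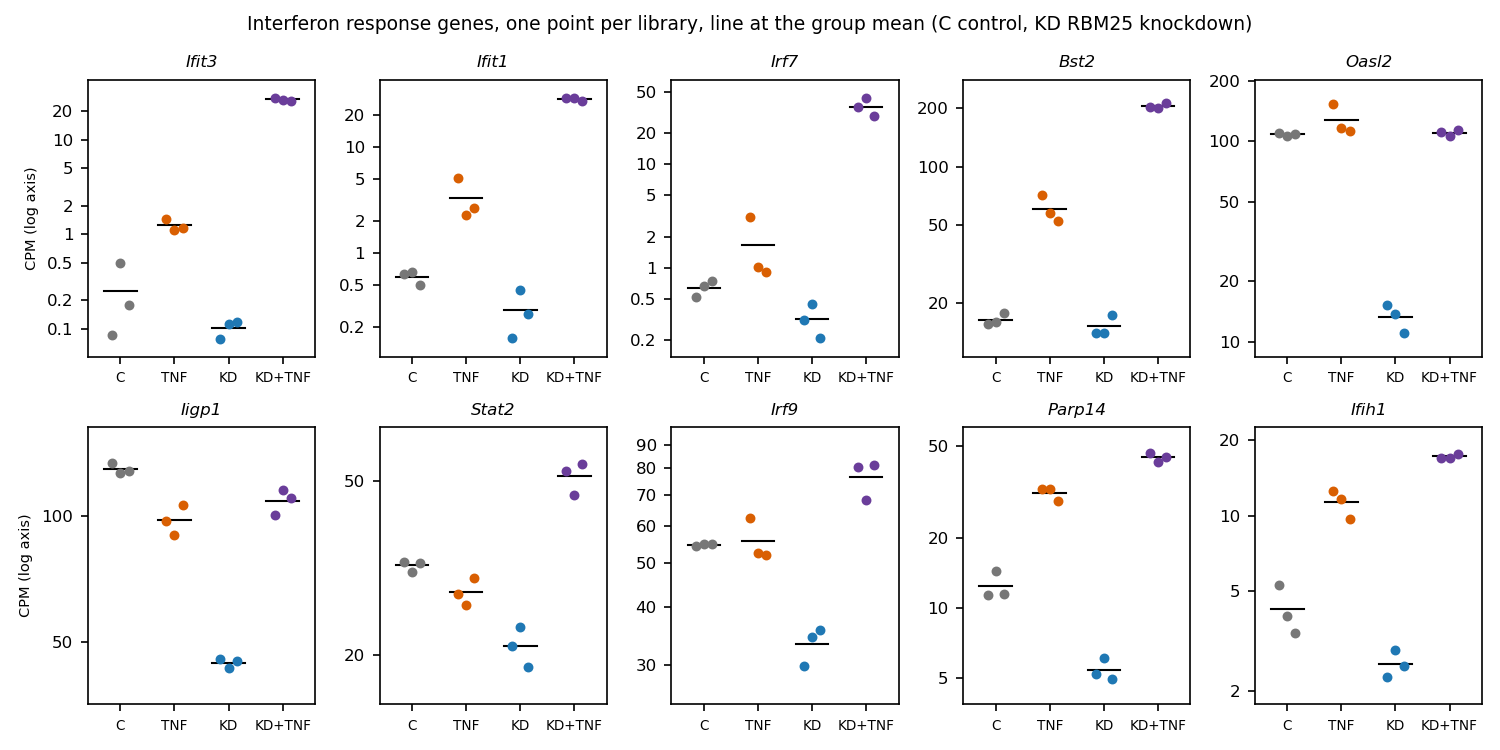
CPM (log axis) of 10 interferon-stimulated genes in each of the 12 libraries, by group, with 1 point per library and a bar at the group mean. Knockdown plus TNF holds the highest points for Ifit3, Ifit1, Irf7, Bst2, Stat2 and Parp14, and Oasl2 and Iigp1 drop with the knockdown alone.

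GTPases that coat pathogen-containing vacuoles had 8 of 15 genes positive and 1 negative, with a median of 1.05. Iigp1, an immunity-related GTPase, had the smallest p of all genes. It was measured at 134, 127 and 128 CPM in control, 97.3, 90.0 and 106 with TNF, 45.7, 43.3 and 45.0 with the knockdown and 101, 115 and 111 with both. TNF took it to 0.755 of its level without the knockdown and raised it 2.44-fold with it (1.69 ± 0.09, adjusted p = 1.77e-09), and with both it remained below control. Irgm1, a regulator of the same family, went from 52.3–56.6 to 61.5–70.0 CPM without and from 22.5–33.1 to 79.8–82.0 CPM with the knockdown (1.25 ± 0.14, adjusted p = 0.000148). Gbp3, a guanylate-binding protein, was already strongly TNF-driven, 26.8-fold without and 182-fold with the knockdown (2.76 ± 0.47, adjusted p = 0.00237). Gbp4 was the negative one (-0.60 ± 0.15, adjusted p = 0.0114) and started higher with the knockdown, at 10.6 to 12.3 against 3.26 to 3.73 CPM. Its CPM difference with TNF was larger with the knockdown by 18.2, and on the log2(FPKM + 1) scale its interaction was 0.03, so its sign depends on the scale.

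Sensors of foreign RNA and DNA and their signalling partners had 6 of 10 positive and 1 negative (10%). The negative one was Sting1, the adaptor of DNA sensing (-0.68 ± 0.19, adjusted p = 0.0256), and it lost its call without control replicate 1, control replicate 2 or knockdown plus TNF replicate 1. Ifih1, which encodes MDA5, rose from 3.41–5.28 to 9.70–12.6 CPM with TNF alone and from 2.26–2.93 to 17.0–17.6 with the knockdown (1.33 ± 0.21, adjusted p = 0.000434). Eif2ak2, the double-stranded RNA kinase PKR, rose 1.14-fold and 1.94-fold (0.77 ± 0.08, adjusted p = 9.4e-06). Adar, which edits double-stranded RNA, did not move with TNF alone (72.3 to 74.8 and 68.1 to 76.6 CPM). It rose from 52.0–53.9 to 87.2–90.6 CPM with the knockdown (0.78 ± 0.07, adjusted p = 1e-06). Of the PARP and TRIM genes 5 of 10 were positive, among them Parp14, an ADP-ribosyl transferase, which rose 2.53-fold without and 8.20-fold with the knockdown (1.70 ± 0.14, adjusted p = 2.41e-07).

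The role of interferons, their receptors and kinases such as Jak1 and Jak2 showed no positive interaction among 11 tested genes, with a median of 0.03. Of these genes 6 had an unadjusted p under 0.05, and DESeq2 called 2 in either direction. The 1 negative call (9.09%, against 4.81% of all genes) was Ifnar2, a chain of the type I interferon receptor (-0.26 ± 0.08, adjusted p = 0.0482). That call held only without TNF replicate 1, TNF replicate 3, knockdown replicate 1 or knockdown plus TNF replicate 2 when 1 library was left out. Ifnb1, interferon-β, and Ifng had too few counts to be tested. Ifnb1 had no count in the 9 libraries of the other groups and 3 counts over the 3 knockdown plus TNF libraries. Ifng had 1 count in control, 1 with TNF and 0 in the knockdown groups.

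Single libraries stood apart in the interferon genes. TNF replicate 1 was the highest of the 3 TNF libraries for 29 of the 42 positive genes (69.0%), against 39.1% of all genes, and Irf7, Isg15 and Ifit1 show it above. Without it there were 43 positive calls, 41 of them among the 42. Knockdown replicate 1 was the highest of its group for 5 of the 42 (11.9%), against 34.1% of all genes, and without it there were 39 positive calls, 38 of them among the 42. Marker transcripts of other cells moved with the groups too. Of 14 macrophage markers 11 were in the table, and they summed to 2.87 to 3.41 CPM in control, 3.50 to 4.72 with TNF, 1.42 to 2.60 with the knockdown and 10.1 to 11.9 with both. Aif1 made up most of the last range, at 7.68 to 9.62 CPM, while Ptprc and Csf1r, which define leukocytes and macrophages, had 1 count each over all 12 libraries. None of the 4 tested macrophage, 2 tested lymphocyte or 11 tested mesenchyme markers had a call (1, a mesenchyme marker, had an unadjusted p under 0.05, and DESeq2 called none). The log2(FPKM + 1) fit called 2 of the 4 macrophage markers, among them Aif1, whose interaction was 1.61 there and -2.19 in the edgeR fit (adjusted p = 0.287). Among the mesenchyme markers Prrx1 had a call without TNF replicate 1 (adjusted p = 0.0152) and Tbx18 without knockdown replicate 2 (adjusted p = 0.0483). The part of these transcripts in the result was not tested.

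Antigen presentation genes, another set that interferon and TNF raise, had 9 of 29 positive (31.0%) and 1 negative (3.45%), with a median of 0.34. There were 2 negative calls without TNF replicate 1, TNF replicate 3 or knockdown plus TNF replicate 2, and 3 without knockdown replicate 1. MHC class I accounted for 5 of its 9 genes. H2-Q4, a class I heavy chain, stood at 9.89 to 10.4 CPM in control, 115 to 119 with TNF, 6.90 to 8.72 with the knockdown and 139 to 145 with both. The 2 TNF groups did not overlap, although both were far above the groups without TNF (0.68 ± 0.09, adjusted p = 9.47e-05). Tap1 and Tap2 encode the peptide transporter. Tap1 rose 1.65-fold without and 2.89-fold with the knockdown (0.81 ± 0.10, adjusted p = 7.11e-05), and Tap2 rose 2.01-fold and 3.24-fold (0.69 ± 0.10, adjusted p = 0.000141). Class I genes are similar in sequence, and reads may be split among them. Of 7 class II genes 1 was positive and 1 negative (14.3% each, against 7.54% and 4.81% of all genes). The positive one, H2-Aa (adjusted p = 0.0439), rested on 2 counts with the knockdown alone. It lost its call without any control or knockdown replicate, TNF replicate 2 or knockdown plus TNF replicate 1. The negative one was the chain H2-Ab1 (log2 interaction -1.42 ± 0.26, adjusted p = 0.00273). H2-Ab1 went from 0.765–1.00 to 46.3–48.8 CPM without and from 2.45–3.49 to 52.6–74.3 CPM with the knockdown. Its CPM difference was larger with the knockdown, so the negative sign holds for the ratio and not for the difference.

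NF-κB genes answered TNF strongly in both states, and their interactions were smaller. Of 18 subunits, inhibitors and kinases, TNF raised 16 without and 14 with the knockdown (23.3% and 22.8% of all genes). Interactions were positive in 5 (27.8%) and negative in 3 (16.7%), against 7.54% and 4.81% of all genes, with a median of 0.06. These counts fell to 3 positive without knockdown replicate 1 or knockdown plus TNF replicate 3, and to 1 negative without control replicate 3 or knockdown replicate 2. Against a minimum fold of 1.2 they were 1 positive and 1 negative, and on the log2(FPKM + 1) scale 2 and 3. The list of TNF ligands, receptors and complex members had 6 of 30 positive (20.0%) and 1 negative (3.33%), against 7.54% and 4.81% of all genes, and a median of 0.07. Leaving out any library gave it 4 to 7 positive calls. Against a minimum fold of 1.2 it had 1 positive and no negative call. The negative member, Tnfaip3, which encodes the deubiquitinase A20, had an interaction of -0.56 ± 0.15 (adjusted p = 0.0224). It lost the call without control replicate 1 (adjusted p = 0.0751) and without control replicate 2 (adjusted p = 0.0706), and the list had 2 negative calls without TNF replicate 2.

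The κB motif, GGG, 3 bases of any kind and TTCC on either strand, was searched in the same windows and is shown for 2 inhibitors that TNF raised.
Nfkbia, chr12:55492652-55492691, minus strand: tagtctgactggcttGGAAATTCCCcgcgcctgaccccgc
Nfkbie, chr17:45555579-45555618, plus strand: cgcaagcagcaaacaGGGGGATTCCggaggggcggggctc
It occurred in 6.31% of all genes with a window, in 8.21% of genes of stronger rise, in 6.06% of the positive interferon genes (2 of 33) and in 25% of the listed interferon genes without a call (8 of 32). Of the 18 genes with a call on the TNF and NF-κB lists and a window, 5 had it (27.8%).

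Nfkbie (chr17:45555700-45563169), which encodes IκB-ε, had the clearest interaction among the inhibitors. It was measured at 5.08, 5.26 and 3.94 CPM in control, 53.3, 59.99 and 57.8 with TNF, 4.86, 4.10 and 4.31 with the knockdown and 83.3, 87.8 and 86.9 with both. The groups without TNF overlapped and the 2 TNF groups did not (folds 12.0 and 19.4, 0.70 ± 0.13, adjusted p = 0.00147). Nfkbia, which encodes IκB-α, went from 34.9–37.1 to 612–623 CPM and from 27.0–29.2 to 542–565 CPM. Its interaction of 0.21 ± 0.07 (adjusted p = 0.0471) lost its call when any of the 12 libraries was left out, with adjusted p from 0.0517 to 0.196, and the CPM difference had the opposite sign.

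Bcl3, an atypical IκB protein that acts as a coactivator, had a weaker rise. It stood at 1.204, 1.56 and 1.501 CPM in control, 16.4, 17.8 and 17.5 with TNF, 2.26, 3.12 and 4.57 with the knockdown and 17.3, 18.5 and 17.9 with both. The TNF groups overlapped, and the groups without TNF did not, with the knockdown higher (folds 12.1 and 5.42, -1.16 ± 0.25, adjusted p = 0.00641). Relb, a subunit of the alternative pathway, and Birc3, the ubiquitin ligase cIAP2, had the reverse arrangement. Relb was at 10.7 to 12.9 CPM in control and 6.504 to 8.72 with the knockdown, against 99.3 to 105 and 91.3 to 96.2 with TNF (0.47 ± 0.11, adjusted p = 0.0105). Birc3 was at 7.77 to 8.45 and 4.96 to 6.19 CPM, against 114 to 121 and 102 to 111 with TNF (0.44 ± 0.10, adjusted p = 0.00751). For both, the level with TNF was lower with the knockdown and the CPM difference was negative, so the positive sign holds for the ratio, and neither call held on the log2(FPKM + 1) scale or against a minimum fold of 1.2. Fas, a death receptor, went from 1.12, 0.722 and 0.765 to 2.57, 1.71 and 1.89 CPM without and from 0.208, 0.223 and 0.354 to 2.33, 2.299 and 2.80 CPM with the knockdown (2.00 ± 0.42, adjusted p = 0.00437), with overlapping TNF groups and a low knockdown group.

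Chemokines had 1 of 17 positive and 1 negative (5.88% each, against 7.54% and 4.81% of all genes). TNF raised 10 of the 17 without and 12 with the knockdown (23.3% and 22.8% of all genes). DESeq2 called 3 positive and the log2(FPKM + 1) fit 6, so the count depends on the test, and both calls were lost without control replicate 1 or control replicate 3. The other NF-κB target effectors had 3 of 23 positive (13%) and 2 negative (8.7%), and the negative calls numbered 0 without control replicate 2 or control replicate 3 and 1 without control replicate 1 or knockdown replicate 2. Il33, an alarmin cytokine of epithelia, had a called fall with TNF alone, from 77.0, 71.8 and 78.3 to 42.4, 47.7 and 47.6 CPM. With the knockdown it started at 129, 121 and 128 CPM and rose to 150.4, 154 and 143 CPM, so that no 2 groups overlapped (0.96 ± 0.08, adjusted p = 2.41e-07).

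**Figure D4:**
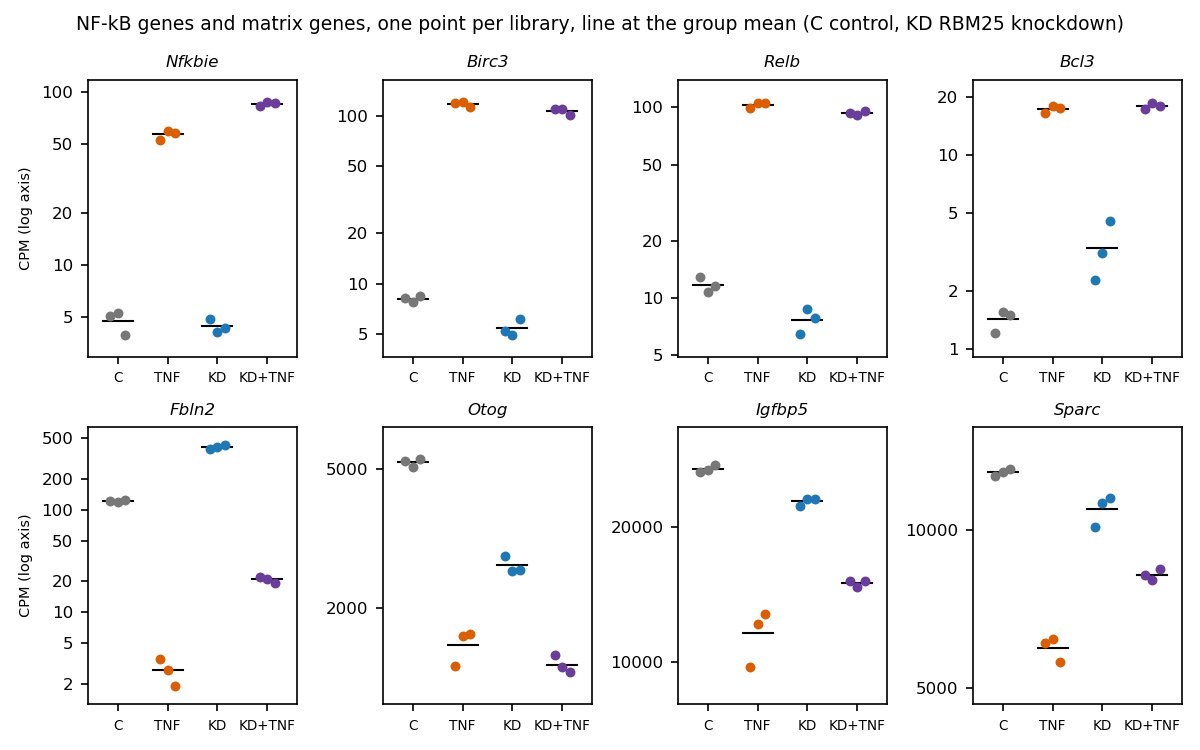
CPM (log axis) of 4 NF-κB genes and 4 matrix or otic genes in each of the 12 libraries, by group, with 1 point per library and a bar at the group mean. Nfkbie rises further with the knockdown, Bcl3 starts higher with it, and Fbln2, Otog, Igfbp5 and Sparc fall less.

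Immediate early genes respond within minutes to a stimulus, and many of them encode transcription factors. Those with a call showed a weaker fall or a stronger rise. Of 13 tested, 8 were positive (61.5%, against 7.54% of all genes) and none negative (4.81% of all genes), with a median of 0.62. Leaving out any library gave 8 or 9. The positive calls numbered 7 with no filter on low counts and 5 against a minimum fold of 1.2. Fosb, a component of AP-1, stood at 213, 206 and 213 CPM in control, 40.4, 52.8 and 39.5 with TNF, 306, 310.3 and 301 with the knockdown and 272, 246 and 264 with both. TNF alone was the low group, apart from all others, and the knockdown group was the highest (folds 0.210 and 0.852, 2.02 ± 0.12, adjusted p = 1.47e-07). Fos, the founding member, was at 519.9, 543 and 525 CPM in control and 191, 237 and 209 with TNF, but at 588, 659 and 674 with the knockdown and 591, 591 and 584 with both (1.198 ± 0.095, adjusted p = 2.41e-07). The fall seen with TNF alone was not called with the knockdown.

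Egr1, a zinc finger factor, fell to 0.522 of its level with TNF alone and to 0.874 with the knockdown (0.74 ± 0.09, adjusted p = 2.41e-05). Ier2 fell to 0.505 with TNF alone, and its ratio of 0.955 with the knockdown was not called (0.92 ± 0.11, adjusted p = 6.97e-05). Junb, an AP-1 member, rose in both states, from 222–237 to 268–311 CPM and from 205–241 to 428–447 CPM (0.62 ± 0.09, adjusted p = 0.000148). Zfp36, the RNA-binding protein tristetraprolin that speeds decay of cytokine messages, fell from 127, 127 and 122 to 74.9, 88.1 and 90.5 CPM without the knockdown. It rose from 114, 125 and 126 to 173, 165 and 178 CPM with it, and only control and knockdown overlapped (1.07 ± 0.09, adjusted p = 2.89e-07).

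The remaining genes with the smallest p among the positive shapes came from no list. Ly6e, a membrane protein that restricts virus entry, was the third by p among stronger rises, at 1776, 1765 and 1823 CPM in control, 1739.8, 1786 and 1840.4 with TNF, 339, 339.5 and 293 with the knockdown and 842, 818 and 873 with both. Control and TNF overlapped, and with the knockdown TNF brought back part of a large loss (1.38 ± 0.08, adjusted p = 5.96e-09). Cspg5, the proteoglycan neuroglycan C, rose in both states, from 132–141 to 197–218 CPM without and from 27.8–30.0 to 104–106 CPM with the knockdown (1.27 ± 0.07, adjusted p = 3.74e-09). Cops7b, a COP9 signalosome subunit, led the weaker falls. It dropped from 90.9, 94.1 and 92.2 to 33.77, 34.1 and 32.0 CPM with TNF alone. With the knockdown it was already low, at 26.9, 27.4 and 24.3 CPM, and 22.1, 21.6 and 24.4 CPM with both (1.27 ± 0.09, adjusted p = 3.69e-08). Gpnmb, a transmembrane glycoprotein, had the fourth highest interaction under the naming rule, because it was almost absent with the knockdown alone (0.0260, 0.0279 and 0 CPM). It stood at 0.883, 1.51 and 0.647 CPM with both, 0.975, 0.693 and 0.912 in control and 1.19, 0.252 and 0.250 with TNF (6.14 ± 1.07, adjusted p = 0.000928).

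Weaker rises were led by genes from several functions. Elovl6, the enzyme that elongates saturated fatty acids, was measured at 27.4, 27.1 and 28.7 CPM in control, 92.3, 83.3 and 82.9 with TNF, 61.1, 66.8 and 67.8 with the knockdown and 93.8, 84.6 and 93.9 with both. The TNF groups overlapped and the knockdown started higher, so the fold went from 3.11 to 1.39 (-1.16 ± 0.09, adjusted p = 1.18e-07). Sgpl1, which degrades sphingosine 1-phosphate, had another arrangement, at 151, 144 and 154 CPM in control, 605, 575 and 545 with TNF, 142, 139.7 and 131 with the knockdown and 289.7, 280.2 and 295 with both. Here the groups without TNF lay close together and the level reached with TNF was lower with the knockdown (-0.88 ± 0.07, adjusted p = 2.41e-07). Rhbdl3, a rhomboid family gene, rose 6.90-fold without and 2.52-fold with the knockdown (-1.45 ± 0.11, adjusted p = 1.42e-07). Percc1 (-2.15) and Pxdn (-1.01), a matrix peroxidase, were also among the first 5, but their CPM differences were slightly larger with the knockdown, so the negative sign holds for the ratio only.

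Genes of sterol and fatty acid synthesis, targets of the factor SREBP, had 6 of 16 negative (37.5%, against 4.81% of all genes). None was positive (7.54% of all genes), and the median was -0.15. TNF raised 11 of the 16 in each state (23.3% of all genes without and 22.8% with the knockdown). Sqle, squalene epoxidase, went from 54.9–60 to 94.8–108 CPM without and from 74.2–82.5 to 102–107 CPM with the knockdown (-0.44 ± 0.08, adjusted p = 0.00156). The difference was small, and none of the 6 passed a test against a minimum fold of 1.2.

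Metallothioneins, which bind zinc and copper, gave the 2 negative calls among 16 antioxidant genes (12.5%, against 4.81% of all genes). Mt2 stood at 5.68, 7.07 and 6.80 CPM in control, 78.4, 66.2 and 61.6 with TNF, 7.02, 6.13 and 4.57 with the knockdown and 17.8, 16.9 and 16.8 with both. TNF alone was the high group and lay apart from the others (folds 10.6 and 2.89, -1.87 ± 0.18, adjusted p = 2.03e-05). Mt1 also had TNF alone as its high group, at 16.9 to 20.3, 56.9 to 76.0, 10.8 to 13.6 and 17.7 to 20.0 CPM for control, TNF, knockdown and both (-1.11 ± 0.17, adjusted p = 0.000825). Slc12a2, the Na-K-Cl cotransporter that the stria vascularis uses to secrete potassium, was at 73.5, 72.3 and 73.7 CPM in control, 126, 126 and 114 with TNF, 81.3, 74.0 and 75.6 with the knockdown and 66.4, 71.3 and 73.0 with both. TNF raised it without the knockdown, and no rise was called with it (-0.87 ± 0.08, adjusted p = 7.12e-07).

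Hypoxia and glycolysis targets had 4 of 15 negative (26.7%, against 4.81% of all genes) and none positive (7.54% of all genes), with a median of -0.32. There were 2 negative calls without control replicate 1 or control replicate 2, and 1 against a minimum fold of 1.2. Eno1, the glycolytic enzyme enolase, rose from 259–278 to 374–484 CPM with TNF alone. It was already at 541 to 633 CPM with the knockdown and at 548 to 608 CPM with both (-0.65 ± 0.12, adjusted p = 0.00244). In the cell cycle list 2 of 28 genes were negative (7.14%, near the 4.81% of all genes) and none positive (7.54% of all genes). They were the proliferation markers Mki67 and Top2a, which TNF raised without the knockdown only. Mki67 was at 0.324 to 0.722 CPM in control, 1.06 to 1.71 with TNF, 4.06 to 5.78 with the knockdown and 3.61 to 4.35 with both (-1.77 ± 0.37, adjusted p = 0.00445), and neither call held on the log2(FPKM + 1) scale.

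**Figure D5:**
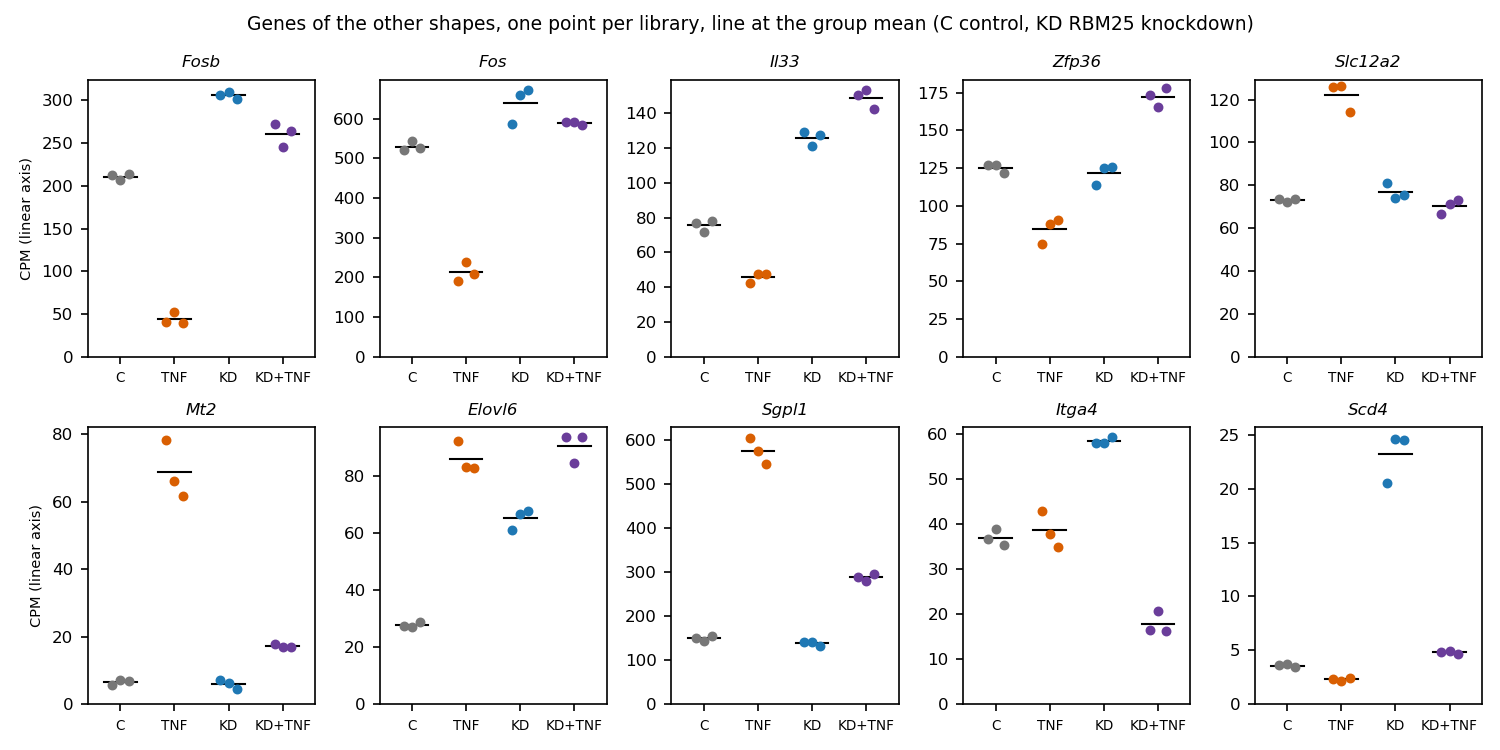
CPM (linear axis) of 10 genes of the other shapes in each of the 12 libraries, by group, with 1 point per library and a bar at the group mean. TNF alone is the low group for Fosb and Fos and the high group for Mt2, Sgpl1 and Slc12a2, and knockdown plus TNF is the low group for Itga4.

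Stronger falls were led by Itga4, the integrin α4 chain. Control and TNF overlapped, at 36.7, 38.8 and 35.3 and 42.8, 37.8 and 34.9 CPM. The knockdown raised it to 58.0, 58.0 and 59.3 CPM, and with both it was at 16.4, 20.6 and 16.3 CPM, below all other libraries (-1.78 ± 0.12, adjusted p = 8e-08). Scd4, a stearoyl-CoA desaturase, stood at 3.41 to 3.70 CPM in control, 2.15 to 2.42 with TNF, 20.5, 24.6 and 24.5 with the knockdown and 4.79, 4.92 and 4.69 with both (-1.63 ± 0.16, adjusted p = 4.65e-06). Sgk1, a kinase that regulates ion channels, rose from 183–192 to 199–241 CPM with TNF alone and fell from 152–175 to 95.4–111 CPM with the knockdown (-0.91 ± 0.10, adjusted p = 2.87e-05). Rassf4, of the Ras association family, was at 218 to 259.7 CPM with the knockdown and 106 to 113 with both, against 52.0 to 58.1 and 40.0 to 45.2 without (-0.74 ± 0.09, adjusted p = 6.99e-05). Crispld2, a secreted protein, fell to 0.541 of its level with TNF alone and to 0.340 with the knockdown (-0.67 ± 0.09, adjusted p = 8.47e-05).

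Otic and matrix genes went in both directions. Otog, which encodes otogelin of the tectorial membrane, stood at 5278, 5066 and 5326 CPM in control, 1365, 1660.0 and 1690.2 with TNF, 2815, 2558 and 2575 with the knockdown and 1464, 1354 and 1313 with both. The knockdown alone lowered it, and the 2 TNF groups overlapped (0.79 ± 0.10, adjusted p = 6.97e-05). Tecta, α-tectorin of the same membrane, moved the other way, from 957–1021 to 588–783 CPM without and from 2808–3256 to 1329–1498 CPM with the knockdown (-0.60 ± 0.13, adjusted p = 0.00609), although this call did not pass a minimum fold of 1.2. Of the 20 supporting cell and otic markers 2 were positive (10.0%) and 3 negative (15.0%), against 7.54% and 4.81% of all genes. There was 1 negative call without control replicate 1 or control replicate 2. The positive calls numbered 1 when any library other than TNF replicate 3 or knockdown replicate 1 was left out, and also under every other alternative except the DESeq2 Wald test. Of 22 hair cell markers only Pcdh15, a tip link cadherin, had a call (4.55%, against 12.3% of all genes in either direction), joined by others to make 2 without knockdown replicate 3 and 3 without knockdown plus TNF replicate 2. It was at 64.2 to 66.3 CPM in control, 65.5 to 73.0 with TNF, 44.5 to 54.9 with the knockdown and 33.7 to 37.6 with both (-0.60 ± 0.10, adjusted p = 0.000555).

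Matrix genes had 6 of 59 positive and 6 negative (10.2% each, against 7.54% and 4.81% of all genes), with a median of -0.05. The knockdown alone raised 35 of the 59 (24.4% of all genes rose). Without control replicate 1 the negative calls numbered 3. Fbln2, a fibulin of elastic fibres, was at 121, 119.8 and 124 CPM in control, 3.53, 2.74 and 1.92 with TNF, 394, 405 and 423 with the knockdown and 22.1, 21.2 and 19.2 with both. TNF took it to 0.0225 of its level without and to 0.0512 with the knockdown (1.19 ± 0.15, adjusted p = 0.000167). The loss in CPM was larger with the knockdown, and the interaction was 0.01 on the log2(FPKM + 1) scale, so this positive value holds for the ratio. Sparc, a collagen-binding protein, went from 12677–13113 to 5598–6203 CPM without and from 10143–11526 to 8034–8443 CPM with the knockdown (0.70 ± 0.08, adjusted p = 2.62e-05). Igfbp5, an IGF-binding protein, went from 26489–27535 to 9774–12821 CPM and from 22278–23123 to 14693–15190.3 CPM (0.61 ± 0.10, adjusted p = 0.000883). Thbs1, thrombospondin 1, rose with TNF alone, from 208–210.1 to 347–409 CPM, and fell with the knockdown, from 746–1057 to 567–718 CPM (-1.43 ± 0.18, adjusted p = 0.000743).

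Splicing genes had a positive share near that of all genes. Of 33 genes of RBM25, the U1 particle, SR proteins and their kinases, 2 were positive (6.06%, against 7.54% of all genes). They were Ddx39b and Clk3, and none of the 33 was negative (4.81% of all genes). Clk3, an SR protein kinase, lost its call when any of the 12 libraries was left out (adjusted p from 0.0503 to 0.174). Ddx39b, an RNA helicase, lost it for all libraries but knockdown replicate 3 and knockdown plus TNF replicate 2 (0.0537 to 0.175). The 14 SR proteins, which guide splice site choice, had no call (3 with an unadjusted p under 0.05, none by DESeq2). The 20 ribosomal protein genes had no call either (none with an unadjusted p under 0.05, none by DESeq2). TNF nevertheless raised all 20 in both states (23.3% of all genes without and 22.8% with the knockdown).

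Clock genes had 5 of 15 positive (33.3%) and 1 negative (6.67%), against 7.54% and 4.81% of all genes, with a median of 0.18. Against a minimum fold of 1.2 there was 1 positive and no negative call. Dbp, an output of the clock, fell from 51.8–55.8 to 33.77–37.9 CPM with TNF alone and was at 27.4 to 28.7 and 24.6 to 26.9 CPM with the knockdown (0.49 ± 0.08, adjusted p = 0.00103), a call that a minimum fold of 1.2 removed. Nr1d1, the repressor REV-ERBα, fell with TNF alone and rose with the knockdown (0.83 ± 0.09, adjusted p = 7.84e-06). Among 16 p53 targets 3 were positive (18.8%) and 1 negative (6.25%), against 7.54% and 4.81% of all genes. Cdkn1a, the cell cycle inhibitor p21, stood at 43.3, 44.0 and 43.4 CPM in control, 90.3, 78.2 and 72.6 with TNF, 64.2, 56.8 and 57.4 with the knockdown and 160.3, 162 and 163 with both. The 4 groups did not overlap (0.56 ± 0.09, adjusted p = 0.000771).

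At the negative end, the 10 lowest interactions were of genes that were nearly silent in at least 1 group. St8sia1, a ganglioside synthase, was at 0.430, 0.578 and 0.736 CPM in control, 3.95, 4.11 and 2.59 with TNF, 8.32, 5.16 and 8.14 with the knockdown and 5.32, 4.87 and 6.04 with both (-3.02 ± 0.34, adjusted p = 1.39e-05). The control was low and the other groups were higher. Camkv, a kinase-like synaptic protein, was at 0.172 to 0.347 CPM in control, 1.10 to 1.61 with TNF, 1.64 to 2.74 with the knockdown and 0.776 to 1.27 with both (-3.59 ± 0.47, adjusted p = 6.98e-05). Kndc1, a guanine nucleotide exchange factor, was high with TNF alone, at 6.402, 5.87 and 6.53 CPM, against 0.589 to 0.924 in control, 1.12 to 1.47 with the knockdown and 0.862 to 2.00 with both (-2.84 ± 0.38, adjusted p = 8.69e-05). Other strongly negative calls were less stable. Lcp1 (adjusted p = 0.0496), Car10 (0.0423) and Has2 (0.0448) lost their calls for most libraries left out in turn. Their adjusted p then reached 0.134, 0.365 and 0.141. Arsi lost its call without control replicate 1, control replicate 2 or TNF replicate 3, and Cilp without TNF replicate 2.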

How the data were processed

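RNA of the 12 organoid libraries was prepared with a TruSeq v2 kit, per the labels' protocols, which does not mark strand, so reads of overlapping antisense genes cannot be told apart. HTSeq, HISAT2, Trimmomatic and DESeq2 are named, with the mm10 build, in the submitters' processing notes, without versions or settings. The authors deposited raw counts per gene, which were used for the main test, and FPKM values, which were used for an alternative. Group and replicate came from the sample labels, and columns were matched to samples by name.

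Counts were fitted with edgeR 4.0.16 in R 4.3.3 (filterByExpr, TMM factors, robust quasi-likelihood F-test, 1 mean per group, all 12 libraries), and p-values were adjusted over 15888 genes with the Benjamini-Hochberg method. The typical biological coefficient of variation was 8.04%. A gene's shape came from the larger of its TNF effects without and with the knockdown, each called at an adjusted p under 0.05. Named genes were Rbm25, Tnf, the 10 highest and 10 lowest interactions with a call and a group mean of at least 1 CPM, up to 5 per shape by p, list members with a call, and up to 3 by p for lists without any; the text gives part of them, and Isg15, Irf1, Ifnb1 and Ifng were added from the interferon list after their values were seen. The gene lists and comparisons were chosen with earlier results of these data known.

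Alternatives were DESeq2 1.42.0 size factors and its Wald test, no filter on low counts, a replicate block, limma 3.58.1 on log2(FPKM + 1), a minimum fold of 1.2 (glmTreat), each library left out, and a linear CPM scale. The scripts were checked on simulated counts. No library pair agreed within counting noise. A 95% counting interval is exact (scipy 1.17.1), and it and the floor of 3 counts cover counting error only. Gene positions and promoter windows are from RefSeq GRCm38.p6, and exon overlaps from GENCODE.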

Additional observations from a re-analysis of the deposited data

Results flagged for a closer look

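In 181 genes the TNF effect was called in opposite directions without and with the knockdown, 102 with a positive and 79 with a negative interaction. The interaction itself is the test of that difference (edgeR, adjusted over 15888 genes). The 10 with the smallest p and an established gene name were all positive on the log2 scale. Among them are interferon genes, Iigp1 (1.69) and Stat2 (1.49). The alarmin Il33 stood at 0.96. The RNA decay factor Zfp36 had 1.07, and Btg2, an antiproliferative gene, had 0.77. The phosphatase gene Dusp1 had 0.87 and the mitochondrial carrier gene Ucp2 had 0.75. Nr1d1 of the clock had 0.83, and Id1, a BMP target, had 0.88. Gfra2, a receptor for neurturin, had 1.87. For each of the 10, the call held when any single library was left out.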

How the results depend on the processing

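Interactions with a call numbered 1198 positive and 764 negative. Against a minimum fold of 1.2 they numbered 246 and 126. Leaving out each library in turn gave 637 to 1179 positive and 432 to 1158 negative calls. The shapes ranged over 296 to 524 genes for stronger rise, 261 to 634 for weaker rise, 338 to 649 for weaker fall and 171 to 509 for stronger fall, which the DESeq2 Wald test put at 484. The causes of these differences were not tested.

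Of 194 named genes with a call, 188 kept it with DESeq2 size factors, 173 without a count filter, 161 on log2(FPKM + 1), 97 against the minimum fold, and 146 to 183 when a library was left out. Signs reversed on log2(FPKM + 1) for 3 of them, Gbp4 (0.0318), Has2 (0.31) and Notch3 (-0.0278), and for Aif1 (1.61), which had no call in the edgeR fit. Ifi47 reversed without control replicate 1 (-0.0471), and leaving out each library gave it -0.0471 to 4.872. The cause was not tested.

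The labels do not say whether replicate numbers pair the libraries, and correlations cannot settle it. Of 18 same-numbered pairs, 2 had deviations correlated over 0.1 (range -0.12 to 0.29). Both joined control and knockdown, replicate 1 (0.29) and replicate 3 (0.26). Control replicate 1 with knockdown replicate 3 was at -0.26, and control replicate 3 with knockdown replicate 1 at -0.27. Libraries correlated best with their own number in 8 of 36 checks. With a replicate block there were 1086 positive and 655 negative calls, and 176 of the 194 genes kept theirs.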
